A study of Sus scrofa with 15 samples.

Results

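The genes described here are 8 chemokines, CCL2, CCL3L1, CCL4, CCL5, CCL8, CCL20, CCL27 and XCL1, together with the chemokine receptor CCR2 and the chemokine receptor-like gene CCRL2. They are 10 of the 3020 genes to which a probe could be assigned, and they were chosen by their measured signals in these groups, CCL27 being lower in the preconditioned kidneys and the others higher. Since the group differences selected them, the values are a description and carry no test.

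RNA came from the remaining kidney of 15 female Yorkshire pigs aged 20 weeks, 1 array per pig and 5 pigs per group. Every pig had lost its left kidney in an earlier operation and had its right renal artery and vein clamped for 90 minutes of warm ischemia, including the control group, which received no ischemic preconditioning (IPC). In both preconditioned groups the external iliac artery of the right leg was clamped in 2 cycles of 10 minutes, either directly before the renal ischemia (rIPCe, the early window) or 24 hours before it (rIPCl, the late window). Kidney tissue was taken at 72 hours. There was no kidney without ischemia among the arrays, so every difference below lies between injured kidneys.

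Chemokines are small secreted proteins that attract leukocytes along a gradient by binding G protein-coupled receptors on those cells. The CC family, named after a pair of adjacent cysteines, draws mainly monocytes, T cells and dendritic cells, and the XC family, which keeps only some of those cysteines, draws dendritic cells that carry XCR1. After renal ischemia, injured tubular cells and resident macrophages are known sources of CC chemokines, whereas CCL27 is known mostly from the keratinocytes of the skin, where it attracts T cells that carry CCR10.

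All values are log2 signals, quantile normalized over the 15 arrays, so that 1 unit is a doubling of signal. Signals of different genes come from different probes and are not set against each other. Of the 10 genes, 8 had 1 probe and 2, CCL2 and CCL5, had 2, and each of the 12 probes cleared background well on all 15 arrays. Over whole arrays the share of spots well above background was 62.2% to 69.5% in control, 67.4% to 73.9% in rIPCe and 71.8% to 74.2% in rIPCl, so that control and rIPCl arrays did not overlap in it, and its part in the differences was not tested. The identity of tissue was checked on nephron markers, of which 10 of 10 measured proximal tubule genes and 5 of 5 measured distal nephron genes were above background on every array.

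CCL27 stood opposite to the other 9 genes. It was lower in both preconditioned groups, while the 9 others were higher in rIPCl by 0.61 to 1.52 on the log2 scale. In the control group CCL27 read 11.26, 8.06, 9.51, 8.41 and 7.86 on arrays 1 to 5. In rIPCe it read 9.20, 6.33, 6.16, 5.57 and 6.16, and in rIPCl 5.81, 5.67, 5.39, 6.01 and 6.17. All 5 rIPCl arrays and 4 of 5 rIPCe arrays lay below the lowest control array, and rIPCe 1 lay inside the control range. The means were 9.02 ± 1.41 in control, 6.68 ± 1.43 in rIPCe and 5.81 ± 0.30 in rIPCl (SD, n = 5). The rIPCl mean differed from control by -3.21 ± 0.69 (SE) on the log2 scale, a 9.25-fold lower signal, and the rIPCe difference of -2.34 ± 0.69 was a 5.05-fold lower signal. The spread within rIPCl was small beside that within the control group, where control 1 was the highest array. In bulk tissue, fewer cells of a type and less RNA per cell cannot be told apart, here or for any gene below.

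**Figure D1:**
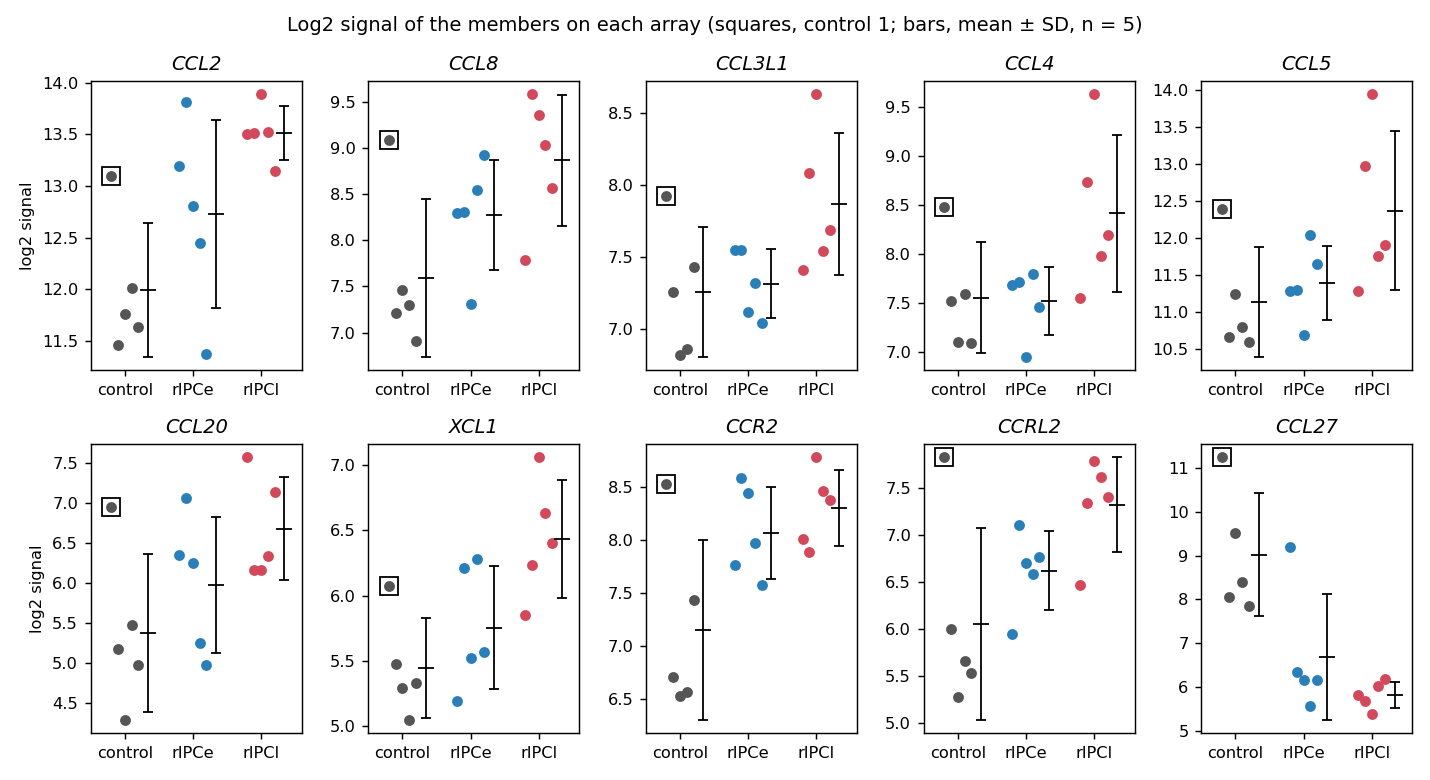
Log2 signal of each of the 10 genes (vertical axes, each with its own scale) on every array, by group; dots are arrays 1 to 5 from left to right, the open square marks control 1, and bars give mean ± SD (n = 5). CCL27 was below every control array on all 5 rIPCl arrays, and control 1 was the highest control array in all 10 panels.

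Among the 9 higher genes CCL2 had the largest difference in rIPCl. CCL2, the main ligand of CCR2 and the signal that draws inflammatory monocytes out of blood, read 13.10, 11.46, 11.76, 12.01 and 11.64 in control. It read 13.19, 13.81, 12.81, 12.45 and 11.37 in rIPCe and 13.50, 13.51, 13.89, 13.52 and 13.15 in rIPCl. The 5 rIPCl arrays lay close together and all above the highest control array, whereas the rIPCe arrays covered the whole control range. The rIPCl mean exceeded control by 1.52 ± 0.39 (SE), a 2.87-fold higher signal, and the rIPCe mean by 0.73 ± 0.39. The second CCL2 probe gave a difference of 1.42 with 4 of 5 rIPCl arrays above the controls, and the pair of probes followed each other over the 15 arrays (Pearson's r = 0.997, and 0.994 after removal of group means).

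CCL8, another monocyte attractant of the same gene cluster, read 9.08, 7.21, 7.46, 7.30 and 6.91 in control. The rIPCe arrays read 8.29, 8.31, 7.31, 8.54 and 8.92, and the rIPCl arrays 7.79, 9.58, 9.35, 9.03 and 8.57. Control 1 stood above all rIPCe arrays and 3 of 5 rIPCl arrays, and the 4 other controls stood below every rIPCl array. The difference was 1.27 ± 0.43 in rIPCl and 0.68 ± 0.43 in rIPCe.

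CCL3L1, CCL4 and CCL5 are CC chemokines that attract T cells, natural killer cells and macrophages, and they share a stretch of the genome in the annotation used for names. CCL5 read 12.39, 10.65, 11.24, 10.79 and 10.59 in control, 11.28, 11.29, 10.68, 12.04 and 11.65 in rIPCe, and 11.28, 12.97, 13.95, 11.75 and 11.90 in rIPCl. Its difference was 1.24 ± 0.48 in rIPCl and 0.26 ± 0.48 in rIPCe, and 2 of 5 rIPCl arrays exceeded all controls. The second CCL5 probe gave 1.25 and 0.18. CCL4 read 8.48, 7.52, 7.10, 7.59 and 7.09 in control, 7.68, 7.72, 6.95, 7.80 and 7.46 in rIPCe, and 7.55, 8.73, 9.63, 7.98 and 8.19 in rIPCl. It was the only one of the 10 genes whose rIPCe mean lay on the other side of control from its rIPCl mean, by -0.03 ± 0.36 against 0.86 ± 0.36. CCL3L1 read 7.92, 7.26, 6.82, 6.86 and 7.43 in control, 7.55, 7.55, 7.12, 7.32 and 7.04 in rIPCe, and 7.41, 8.08, 8.63, 7.54 and 7.69 in rIPCl. It had the smallest late-window difference of the 10, 0.61 ± 0.25, and 0.06 ± 0.25 in rIPCe. For all 3 genes rIPCl 3 was the highest of the 15 arrays and rIPCl 2 came second, and the remaining rIPCl arrays overlapped the controls.

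CCL20 attracts cells that carry CCR6, among them some T cells and dendritic cells, and is made by epithelium under inflammation. It read 6.95, 5.18, 4.29, 5.48 and 4.98 in control, 6.35, 7.06, 6.25, 5.25 and 4.97 in rIPCe, and 7.58, 6.17, 6.17, 6.34 and 7.14 in rIPCl. Its difference was 1.31 ± 0.50 in rIPCl and 0.60 ± 0.50 in rIPCe. The highest array was rIPCl 1, which was the lowest rIPCl array for 6 of the 9 genes that were higher. CCL2 and CCL20 also shared a division among the rIPCe arrays: the mean of rIPCe 1 to 3 was 13.27 for CCL2 and 6.55 for CCL20, against 11.91 and 5.11 for rIPCe 4 and 5. CCL5 and CCL8 ran the other way, at 11.08 and 7.97 on rIPCe 1 to 3 against 11.85 and 8.73 on rIPCe 4 and 5. Those array sets lay on different slides (slides 2 and 3), and the part of the slide in this division was not tested.

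XCL1, which activated T and natural killer cells release, read 6.07, 5.48, 5.29, 5.05 and 5.33 in control. In rIPCe it read 5.19, 6.21, 5.52, 6.28 and 5.57, and in rIPCl 5.85, 6.23, 7.06, 6.63 and 6.40. All rIPCl arrays except rIPCl 1 were above the highest control array. The difference was 0.99 ± 0.26 in rIPCl and 0.31 ± 0.26 in rIPCe. With normexp background correction the rIPCl difference was 0.31 for XCL1, 0.61 for CCL20, 0.66 for CCRL2 and 0.40 for CCL3L1, and XCL1 no longer passed the adjusted threshold described below.

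CCR2, the receptor by which monocytes follow CCL2 and CCL8, read 8.52, 6.71, 6.53, 6.57 and 7.43 in control. It read 7.76, 8.58, 8.44, 7.97 and 7.57 in rIPCe and 8.01, 7.88, 8.78, 8.46 and 8.37 in rIPCl. CCR2 had the largest early-window difference among the 9 genes that were higher, 0.91 ± 0.35, close to its 1.15 ± 0.35 in rIPCl. Control 1 was above 4 of 5 rIPCl arrays, and the 4 other controls were below all rIPCe and all rIPCl arrays.

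CCRL2 is a receptor-like protein that binds the attractant chemerin without known signalling of its own and is induced on activated myeloid and endothelial cells. Its arrays read 7.82, 6.00, 5.28, 5.66 and 5.53 in control, 5.95, 7.10, 6.70, 6.58 and 6.77 in rIPCe, and 6.47, 7.34, 7.78, 7.61 and 7.40 in rIPCl. No rIPCl array exceeded control 1, while all 5 exceeded the 4 other controls. The difference was 1.26 ± 0.42 in rIPCl and 0.56 ± 0.42 in rIPCe.

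**Figure D2:**
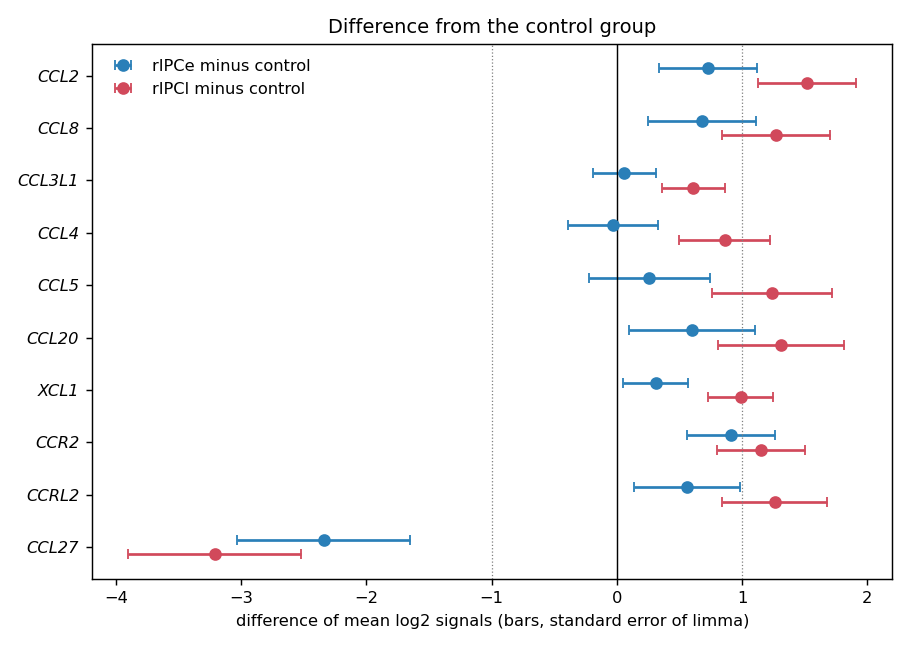
Difference of each preconditioned group from control for the 10 genes, as a difference of mean log2 signals (horizontal axis) with the standard error from limma; dotted lines mark a doubling and a halving of signal. Differences in rIPCl ran from 0.61 for CCL3L1 to 1.52 for CCL2 in 9 genes and reached -3.21 for CCL27, and rIPCe points lay between 0 and the rIPCl points for all genes except CCL4.

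The order of the groups was the same for most of these genes. Means were ordered control, rIPCe, rIPCl from low to high for 8 genes and in reverse for CCL27, with CCL4 as the exception. Neighbours in that order were often close: the step from control to rIPCe exceeded the residual SD between arrays for only 3 genes (CCL2, CCL27 and CCR2), and the step from rIPCe to rIPCl for 5 (CCL2, CCL3L1, CCL4, CCL5 and XCL1). The whole distance from control to rIPCl exceeded the residual SD for all 10.

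Across the fit of all 43603 probes, an adjusted p below 0.05 in rIPCl versus control (limma, Benjamini-Hochberg) was reached by 3 of the 10 genes, CCL2 and XCL1 among the higher and CCL27 as the lower one, against 6.27% of all probes. By brightest probe, as the 10 genes and the lists below are counted, the share was 9.5% of the 3020 genes. A fold change of at least 2 with an unadjusted p below 0.05, the study's criteria, was met by 7 of the 10, 6 higher and 1 lower, against 5.83% of all probes. XCL1 and CCRL2 show how the criteria part: XCL1 passed the adjusted threshold at 0.99, just below the fold limit of 1 on the log2 scale, and CCRL2 met the fold limit at 1.26 without the adjusted threshold. Since this contrast chose the genes, nothing is read from these counts. In rIPCe versus control none of the 10 passed the adjusted threshold, which 0.00229% of probes did (1 probe). CCL27 alone met the study's criteria, against 2.18% of probes. Between rIPCl and rIPCe none of the 10 passed either rule, against 0% and 0.525% of probes. An unadjusted p below 0.05 alone was reached by 2 of the 10 in rIPCe versus control and by 3 between rIPCl and rIPCe. The share of all probes at that looser rule was not counted, here or beside the lists below. The median log2 difference of the 10 genes was 1.19 in rIPCl and 0.44 in rIPCe, beside -0.03 and -0.01 over all probes. Both comparisons used the same 5 control arrays.

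Control 1 stood apart from the other control arrays. It was the highest control array for all 9 genes that were higher in rIPCl, and for CCL27 as well. With all arrays, only CCL2 among the 9 had every rIPCl array above every control array (2.72% of all probes), and CCL27 had every rIPCl array below (6.76%). Without control 1, 7 of the 9 had no overlap with the 4 remaining controls, CCL2, CCL5, CCL8, CCL20, XCL1, CCR2 and CCRL2, against 5.58% of all probes, and CCR2 alone also had every rIPCe array above them, against 2.06% of all probes. In the fit, 7 of the 10 genes passed the adjusted threshold without control 1, and none did without control 2, control 3, rIPCl 3, rIPCl 4 or rIPCl 5. In rIPCe versus control, 5 genes met the study's criteria without control 1 (CCL2, CCL8, CCL27, CCR2 and CCRL2) and 3 without rIPCe 5 (CCL2, CCL27 and CCR2), and CCL27 passed the adjusted threshold only without rIPCe 1. The direction in rIPCl held for all 10 genes whichever array was left out, and CCL27 stayed between -3.50 and -2.65. With normexp background correction the rIPCl difference of CCL27 was smaller, at -2.28.

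**Figure D3:**
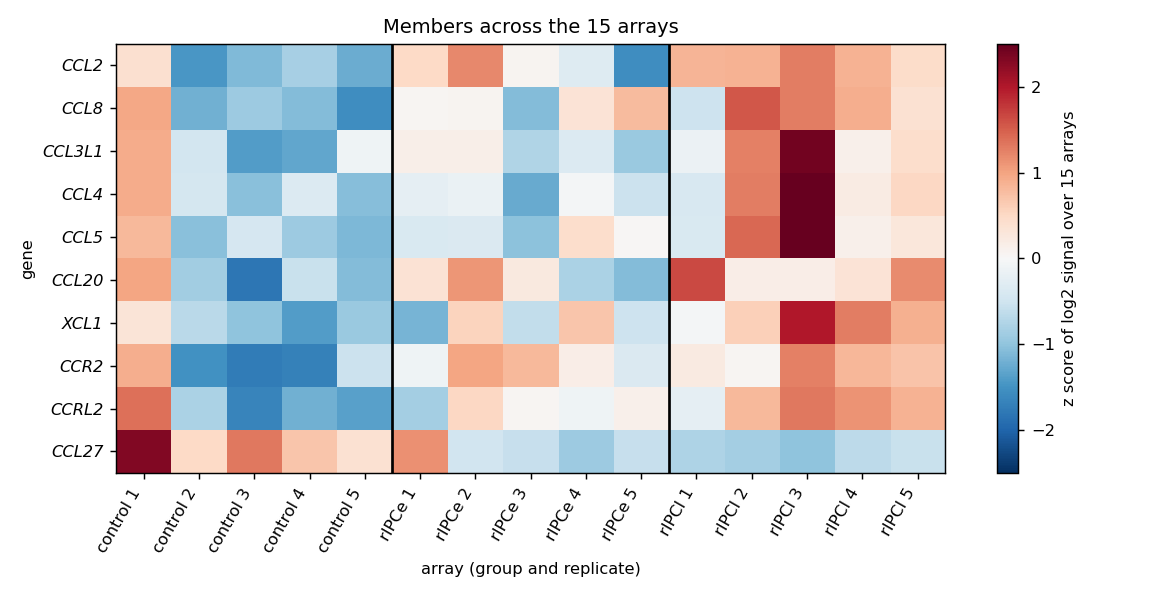
The 10 genes (rows) on the 15 arrays (columns, black lines between groups), coloured by z score of log2 signal over the arrays, red for high and blue for low. Control 1 was red in every row, rIPCl 3 was the highest rIPCl array in 7 of the 9 upper rows, and the CCL27 row was reversed.

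Each slide holds 4 arrays, and the groups were spread unevenly over the slides: control 1 to 4 on slide 1, control 5 with rIPCe 1 to 3 on slide 2, rIPCe 4 and 5 with rIPCl 1 on slide 3, and rIPCl 2 to 5 on slide 4. No slide held both control and rIPCl arrays, so that difference could be read within a slide only through rIPCe. On slide 2, rIPCe minus control was positive for 8 of the 9 genes, from -0.03 for CCL3L1 to 1.63 for CCL2, and -0.63 for CCL27. On slide 3, rIPCl 1 minus the mean of both rIPCe arrays was positive for 4 of the 9, from -0.94 for CCL8 to 2.47 for CCL20, and -0.06 for CCL27. Slides 1 and 4 each held a single group. With slide as a block, the rIPCl minus control difference therefore rested on control 5, rIPCl 1 and the rIPCe arrays. In that fit the rIPCl difference was 3.22 for CCL2, 4.05 for CCL20, 1.07 for CCR2 and 0.84 for CCRL2. It was -0.69 for CCL27, 0.29 for CCL4, 0.23 for XCL1, 0.20 for CCL3L1, 0.12 for CCL8 and -0.08 for CCL5, and none of the 10 passed the limma adjusted threshold, while CCL2 and CCL20 met the study's criteria. Since control and rIPCl shared no slide, the late-window difference of each of the 10 genes cannot be told apart from slide. With slide as a random block (correlation 0.228), no probe of the array passed in rIPCl versus control, and the smallest adjusted p among the 10 genes was 0.227 (limma).

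**Figure D4:**
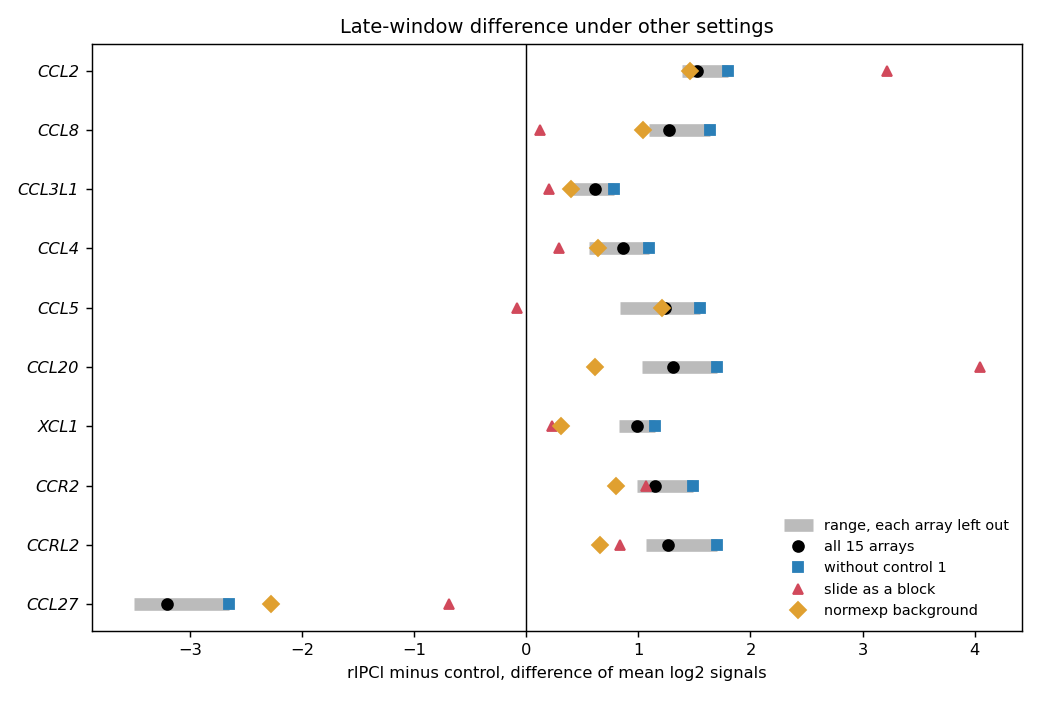
The rIPCl minus control difference of mean log2 signals (horizontal axis) for each gene with all 15 arrays, as the range when each array was left out in turn (grey bars), without control 1, with slide as a block and with another background correction (normexp). Leaving out arrays kept every sign, and slide as a block moved CCL2 and CCL20 up to 3.22 and 4.05 and CCL27 to -0.69.

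Among CC ligands outside the 10, 8 of a list of 20 had a probe. CCL19 and CCL21, the ligands of CCR7 that guide T cells and dendritic cells to lymphoid tissue, rose in rIPCl, beside 6.27% of all probes called, and the 6 others did not pass the test. CCL19 was higher by 1.59 ± 0.32 (limma adjusted p = 0.0244, and 0.00817 to 0.462 over the alternatives), with all 5 rIPCl arrays above the controls. CCL21 was higher by 1.38 ± 0.38 (limma adjusted p = 0.0472, and 0.0166 to 0.608 over the alternatives). The call was lost in 19 of 29 alternatives for CCL21 and in 8 of 29 for CCL19, among them slide as a block and as a random block for both. They lie 2 and 3 genes from CCL27 in the pig annotation (Sscrofa11.1), and their differences had the opposite sign to that of CCL27. The study had named both from these same arrays. CCL28, the other known ligand of CCR10, differed by -0.41 ± 0.31 (limma adjusted p = 0.416), CCL25 by 0.73 ± 0.26 (adjusted p = 0.095), CCL14 by 0.40 ± 0.13 (adjusted p = 0.0778) and CCL24 by 0.24 ± 0.39 (adjusted p = 0.738). CCL11, which lies between CCL8 and CCL2, was above background on 1 control and 2 rIPCl arrays, and CCL26 on 3 of each.

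Of 14 receptor genes listed, 10 had a probe and 0 passed the limma adjusted threshold in rIPCl (3 had an unadjusted p below 0.05), with a median difference of 0.17. Without control 1, 2 of the 10 passed, beside 7.51% of all probes. CCR10, the receptor of CCL27, differed by 0.58 ± 0.36 (limma adjusted p = 0.321), XCR1, the receptor of XCL1, by 0.24 ± 0.15 (adjusted p = 0.304), and CCR1, shared by several CC ligands, by 0.72 ± 0.39 (adjusted p = 0.247). CCR7 differed by 0.88 ± 0.48 and CCR9 by -0.52 ± 0.25. CCR3 was above background on 1 control and 4 rIPCl arrays, with a measured difference of 1.84 ± 0.62 (limma adjusted p = 0.083). The atypical receptors, which bind chemokines without attracting cells, gave 0.11 ± 0.29 for ACKR1, -0.79 ± 0.33 for ACKR3 and 0.05 ± 0.33 for ACKR4, and ACKR2 was not well above background on any array. CCR6, the receptor of CCL20, had no assigned probe. In rIPCe none of these 18 ligands and receptors passed the limma adjusted threshold, and 1 had an unadjusted p below 0.05. The receptor genes CCR2, CCR3 and CCR1 are close relatives with similar sequences, as are CCL3L1 and its neighbouring copies, and how far their probes share targets was not tested.

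**Figure D5:**
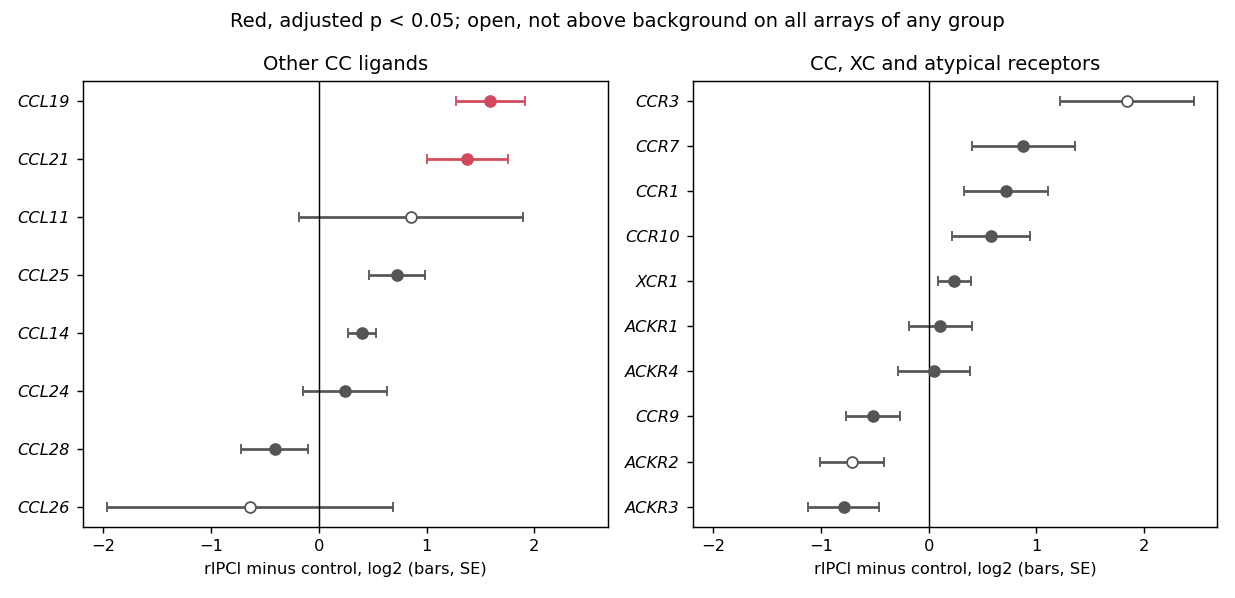
The rIPCl minus control difference of mean log2 signals (horizontal axes, bars SE) for 8 CC ligands and 10 receptors outside the 10 genes; red marks an adjusted p below 0.05 and open circles mark genes not above background on all arrays of any group. CCL19 and CCL21 are the red points, at 1.59 and 1.38, and no receptor is red.

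Genes that act below and above chemokine receptors were mostly not past the test. Of 50 genes of chemokine receptor signalling, 17 had a probe and 0 passed the limma adjusted threshold (7 had an unadjusted p below 0.05), with a median difference of 0.05. The largest differences there were those of RGS4, which shortens G protein signals, at 1.49 (limma adjusted p = 0.0693), and PIK3CG, the lipid kinase coupled to chemokine receptors in leukocytes, at 1.26 (adjusted p = 0.0535). The count of 0 is by the brightest probe of each gene. For MAP2K1 that probe gave -0.41 (limma adjusted p = 0.115). Other MAP2K1 probes passed, at -0.79 (adjusted p = 0.037) and -0.62 (adjusted p = 0.0477), and its remaining probes did not. Of 30 inducers of chemokine genes and NF-kB components, 24 had a probe and 2 rose, with a median of 0.39. They were TLR2, a receptor for microbial lipids and damage signals, by 1.13 ± 0.27 (limma adjusted p = 0.0342), and IL1A, an inflammatory cytokine released by dying cells, by 1.03 ± 0.21 (adjusted p = 0.0251). IL1A was above background on only 3 control arrays. That count of 2 among 24 is near the 6.27% called over all probes and the 9.5% of the 3020 genes by brightest probe. Both calls were lost without control 2, with slide as a block (smallest limma adjusted p of the list = 0.189) and as a random block (0.222).

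Leukocyte markers gave a mixed picture. Of 20 monocyte and macrophage markers, 14 were measured and 13 were higher in rIPCl, with a median difference of 1.25. The exception was CD14, at -0.12 ± 0.31 (limma adjusted p = 0.836). Of the 14 markers 6 rose, beside 6.27% of all probes called in either direction. Among those 6, the 4 with the largest differences were the complement genes C1QA (1.65 ± 0.34) and C1QB (1.55 ± 0.32), made by macrophages, SPI1 (1.54 ± 0.43, above background on only 1 control array), a transcription factor of myeloid cells, and C1QC (1.45 ± 0.32). The mean log2 signal of that list was 8.72 to 10.29 on control arrays, 9.31 to 10.19 on rIPCe arrays and 9.71 to 10.79 on rIPCl arrays, with control 1 at the top of the control range. Of 22 T and NK cell markers, 13 were measured, all 13 were higher in rIPCl with a median of 1.15, and 0 passed the limma adjusted threshold (10 had an unadjusted p below 0.05). Their mean log2 signal was 6.23 to 7.52 in control, 5.96 to 7.77 in rIPCe and 6.72 to 9.33 in rIPCl, and the highest value belonged to rIPCl 3, the array that was also highest for CCL3L1, CCL4 and CCL5. Without control 1, 11 of the 14 macrophage markers and 1 of the 13 T and NK cell markers passed, beside 7.51% of all probes. With slide as a block, none of either list passed, and the medians were 1.17 and -0.40. With slide as a random block the smallest limma adjusted p was 0.222 among the macrophage markers and 0.318 among the T and NK cell markers. Of 4 measured B cell markers 2 rose, CD79A, part of the B cell receptor, by 1.23 ± 0.32 and the adaptor BLNK by 1.02 ± 0.21, whereas none of 6 neutrophil markers passed the limma adjusted threshold (2 had an unadjusted p below 0.05) and their median was 0.11. Neither B cell call held with slide as a block, where the median of that list turned from 0.67 to -0.34, or as a random block (smallest limma adjusted p = 0.222). The part of leukocyte number in the chemokine values was not tested.

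Keratinocytes, the known source of CCL27 in skin, could hardly be judged from these arrays. Of 10 keratinocyte markers only IVL, a protein of the cornified envelope, had a probe, and it was not well above background on any array. Proximal tubule markers ran in the same direction as CCL27, with 8 of 10 lower in rIPCl, a median of -0.66 and 2 that fell, SLC7A9, an amino acid transporter, by 1.24 on the log2 scale (limma adjusted p = 0.0239) and FBP1, an enzyme of gluconeogenesis, by 0.91 on the log2 scale (adjusted p = 0.0386), beside 6.27% of all probes called. Both calls were lost with slide as a block (smallest limma adjusted p of the list = 0.172) and as a random block (0.223). Their mean log2 signal was 12.41 to 13.44 in control, 12.18 to 13.03 in rIPCe and 11.90 to 12.96 in rIPCl, and control 1, the highest array for CCL27, was the lowest control array for this list. Of 7 measured tubular injury genes, CLU, which encodes the secreted chaperone clusterin, rose by 2.02 ± 0.44 and VCAM1, an adhesion molecule for leukocytes, by 1.57 ± 0.29. These calls too were lost with slide as a block (smallest limma adjusted p = 0.12), where the median of the 7 went from 1.1 to 2.85, and as a random block (0.22). The part of tubular cell loss in the CCL27 values was not tested.

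Over the 15 arrays, the genes whose signals were most like those of CCL27, among 2566 genes searched, were TXN (Pearson's r = 0.93), APOA4 (0.922), NQO1 (0.912), TXNRD1 (0.902) and TBCCD1 (0.898). TXN encodes thioredoxin, TXNRD1 the enzyme that reduces it, NQO1 a quinone reductase and APOA4 an apolipoprotein. On rIPCe 1, where CCL27 stayed at 9.20, APOA4 stayed at 11.15 beside 6.40 to 7.81 on the other rIPCe arrays, and TXN at 16.23 beside 14.98 to 15.50. For CCL2 the most alike genes were ICAM1 (0.965), an adhesion molecule for leukocytes, TMSB10 (0.96), SOX9 (0.937), FOLR1 (0.932) and PLAU (0.917). Those most like CCR2 were TOP2A (0.959), CDK1 (0.956), ASF1B (0.939), CASP1 (0.937) and CCNB1 (0.936), of which TOP2A, CDK1 and CCNB1 act in dividing cells. These coefficients describe arrays that share group, slide and normalization, and no test was made of them.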

How the data were processed

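Kidney RNA from 15 pigs was labelled with Cy3 and hybridised to single-colour porcine arrays with 4 arrays per slide. The authors deposited 1 scanner file per array, made with Agilent Feature Extraction 11.0.1.1, and a table of the series. The deposited intensity values are linear, and the software had corrected them for background within an array. Averaging the processed signals of each of the 43603 probes gave the values of that table within a tolerance of 0.1 percent. Here control spots (1417 per array) and outlier spots (1 to 70 per array) were left out, the processed signals were put on the log2 scale, quantile normalized and averaged over the spots of each probe. Saturated spots numbered 0. Spots well above background made up 62.2% to 69.5% of a control array, 67.4% to 73.9% of an rIPCe array and 71.8% to 74.2% of an rIPCl array. Precision is limited by the number of arrays.

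Group means were fitted with limma 3.58.1 (lmFit and eBayes, R 4.3.3) to all probes, with Benjamini-Hochberg adjustment over all of them. A fold of at least 2 with an unadjusted limma p below 0.05, called the study's criteria here, was counted beside it. Accessions of 6686 probes matched 3020 pig gene symbols, and the brightest probe stood for a gene. The 10 genes, the gene lists and the tests were chosen with earlier results of these data known. The text names all 10 genes, every measured CC or XC ligand and receptor, from other lists up to 4 genes with the largest significant difference (or the 2 largest), the 5 genes most alike, and neighbours of CCL27, except 1 gene that is not reported here. GATM, HNF4A and CD14 are named as well because they ran against their lists, and MAP2K1 because its probes differed. The arrays are separate pigs per the labels. Scripts were tested on simulated data. Alternatives in normalization, background, filter, model and array choice were run. Gene order was taken from the Sscrofa11.1 annotation, and probe sequences were not used here.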

Additional observations from a re-analysis of the deposited data

Results flagged for a closer look

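In 30 sets of 5 arrays (10 genes in 3 groups), 3 had an array far from the rest by Dixon's criterion, which chance gives for about 1 in 20 sets. For CCL8, control 1 was at 9.08 on the log2 scale while the other controls lay between 6.91 and 7.46. For CCRL2, the same array was at 7.82 while the other controls lay between 5.28 and 6.00. For CCL27, rIPCe 1 was at 9.20 while the other rIPCe arrays lay between 5.57 and 6.33. Leaving out control 1 moved the rIPCl difference of CCL8 from 1.27 to 1.64 and that of CCRL2 from 1.26 to 1.70.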

How the results depend on the processing

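The main counts at an adjusted p below 0.05 were 3 of the 10 genes in rIPCl versus control, 0 in rIPCe versus control and 0 between the preconditioned groups, with 2736, 1 and 0 probes over all. Of the lists, 0 receptors, 0 signalling genes and 2 inducers passed in rIPCl. When arrays were dropped one at a time, the 10 genes gave 0 to 7, 0 to 1 and 0 to 0, all probes gave 49 (without rIPCl 5) to 4913 (without rIPCl 1), 1 to 267 (without rIPCe 1) and 0 to 2, and the lists gave 0 to 2 receptors, 0 to 4 signalling genes and 0 to 4 inducers. The study's criteria gave 5 to 9 of the 10 genes in rIPCl, 1 to 5 in rIPCe and 0 to 2 between the preconditioned groups. Subtracting the 75th percentile gave 6 of the 10 genes and 7728 probes in rIPCl, 2 probes in rIPCe, 3 signalling genes and 4 inducers, moved the median of all probes to -0.11 and the share of probes at the study's criteria that were higher from 63% to 42.5%. Without normalization between arrays, that share was 24.9%, the median -0.24, and 1 of the 10 genes, 0 inducers and 0 probes in rIPCe passed.

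With slide as a block, 0 of the 10 genes passed in rIPCl, 2 met the study's criteria in rIPCl and 2 between the preconditioned groups, 479, 1189 and 112 probes passed in the 3 comparisons, 0 inducers passed in rIPCl, the share of higher probes was 45.2%, CCL5 reversed to -0.08, and 1 receptor passed in rIPCl, CCR9 (-1.98). In that fit the rIPCl versus control difference rested on control 5, rIPCl 1 and the rIPCe arrays, as described above. With slide as a random block (correlation 0.228), 0 of the 10 genes, 0 probes and 0 inducers passed in rIPCl. Array weights gave 8 of the 10 genes, 10029 probes, 3 receptors, 5 signalling genes and 5 inducers in rIPCl, 2 probes in rIPCe with 2 of the 10 genes at the study's criteria, and 4 probes between the preconditioned groups. The methods' t-test, after Benjamini-Hochberg, gave 1548 probes, 1 signalling gene and 1 inducer in rIPCl, and 2 probes between the preconditioned groups. Fitting only the 10 arrays compared gave 1 signalling gene and 1 inducer in rIPCl, 0 probes in rIPCe and 1 between the preconditioned groups. Probes well above background alone gave 2 signalling genes, and a trended robust fit gave 1.

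The replicate numbers did not pair the pigs: deviations from group means of same-numbered arrays correlated between -0.266 and 0.0732 over 15 pairs. The replicate block gave 1 of the 10 genes, 987 probes and 1 inducer in rIPCl and 0 probes in rIPCe.

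Alternatives chosen after seeing the data were normexp on the median signal, which gave 4 of the 10 genes at the study's criteria in rIPCl, the run without normalization above, and leaving out control 1 and rIPCl 1 together. That last gave 9 of the 10 genes, 4297 probes, 2 receptors, 5 signalling genes and 7 inducers in rIPCl, 11 probes in rIPCe with 5 of the 10 genes at the study's criteria, and 2 probes between the preconditioned groups with 2 of the 10 genes at the criteria. Normexp on the mean signal was not run. The cause of these movements was not tested.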
